A study of Homo sapiens with 14 samples.

Results

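The genes described here are 10 markers and regulators of the cadherin switch and of epithelial-mesenchymal transition (EMT): CDH1, CDH2, CDH11, EPCAM, VIM, SNAI1, SNAI2, TWIST1, ZEB1 and ZEB2. They were taken by symbol from a table of read counts for 25952 Ensembl genes, where all 10 were present, and all 10 passed the filter on low counts that left 19142 genes for testing. The libraries came from NT2, an established human embryonal carcinoma line whose pluripotent cells can be driven to differentiate in culture. There were 2 libraries in each of 7 groups: retinoic acid (RA, 10 µM, given in the labels as a neuronal inducer) for 5, 10 or 21 days, bone morphogenetic protein 2 (BMP2, given as a muscle inducer) for 5, 10 or 21 days, and untreated cells at day 0. The labels name a first BMP2 dose of 30 ng/ml and a later one of 40 ng/ml without saying which libraries received which. Cultures with DMSO alone are mentioned in the labels and are not analysed here, so time in culture, vehicle and treatment cannot be told apart in comparisons with day 0. Nothing in the labels says that replicates came from separate cultures, so p-values measure the spread between these libraries, which may be technical.

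E-cadherin (CDH1) holds epithelial cells together at adherens junctions, and EPCAM is a surface adhesion protein of epithelia and of pluripotent cells. In EMT, as in gastrulation or neural crest delamination, cells typically replace E-cadherin with N-cadherin (CDH2), gain the intermediate filament protein vimentin (VIM), and in mesenchyme often cadherin 11 (CDH11). Transcription factors of the SNAI, TWIST and ZEB families drive such changes, and the SNAI and ZEB proteins repress CDH1 by binding E-boxes with the letters CACCTG, read as CAGGTG on the other strand.

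ZEB1 and ZEB2 are paralogous repressors that bind this E-box, and in these libraries ZEB2 was called higher with BMP2 on each sampled day and ZEB1 on none, so the 250 bases upstream of one annotated start site of each are shown, from the RefSeq promoter table on GRCh38.p14. The first is the ZEB1 window at chr10:31318167-31318416 on the plus strand, and the second is the ZEB2 window at chr2:144520120-144520369 on the minus strand, each written 5′ to 3′ on the strand of its gene. Capitals mark every match to CACCTG or CAGGTG.

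ZEB1: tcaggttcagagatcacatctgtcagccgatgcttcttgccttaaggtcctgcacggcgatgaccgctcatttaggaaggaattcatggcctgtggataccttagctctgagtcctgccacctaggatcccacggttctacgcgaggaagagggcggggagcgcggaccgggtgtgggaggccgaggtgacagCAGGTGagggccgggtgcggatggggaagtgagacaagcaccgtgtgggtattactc

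ZEB2: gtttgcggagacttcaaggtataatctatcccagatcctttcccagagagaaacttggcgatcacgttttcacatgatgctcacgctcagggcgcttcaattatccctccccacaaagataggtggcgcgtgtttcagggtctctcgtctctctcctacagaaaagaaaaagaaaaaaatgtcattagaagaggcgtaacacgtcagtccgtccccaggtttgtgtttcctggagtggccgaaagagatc

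The ZEB1 window held 1 CAGGTG, with its first base at position -57 from the start site, and the ZEB2 window held 0 matches. The table gave 11 windows for 4 of the 10 genes (CDH2, VIM, ZEB1 and ZEB2), of which 2 held a match, both among the 7 ZEB1 windows. For comparison, 17.5% of all 35116 windows of 250 bases held at least 1 match. These are matches of letters, not measured binding sites.

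Levels are CPM, read counts scaled to a common library size with TMM factors, and total counts ran from 45773278 to 75754396 per library. The libraries did not all follow their labels in similarity. The 2 BMP2 day 10 libraries correlated with each other at r = 0.918 over log2 CPM, against 0.964 to 0.990 for the other replicate pairs. The nearest library to BMP2 day 10 replicate 1 was replicate 2 of BMP2 day 5 (r = 0.981), and that to BMP2 day 10 replicate 2 was replicate 2 of BMP2 day 21 (r = 0.966). Summed pluripotency markers lay between 176 and 178 CPM in all day 21 libraries of either treatment, against 6971 to 7780 CPM at day 0. DPPA4 alone had 137 to 152 CPM of the day 21 sums. POU5F1 had at most 4.11 CPM and NANOG at most 0.630 CPM at day 21, against 1006 to 1011 and 220 to 279 CPM at day 0. Summed fibroblast markers, which overlap with the mesenchymal genes below, lay between 32333 and 33476 CPM at BMP2 day 21 and between 28.0 and 35.2 CPM at day 0. Summed smooth muscle markers reached 586 to 1306 CPM at BMP2 day 5, against 44.2 to 98.9 CPM at day 0. Summed neuron markers reached 172 to 182 CPM at RA day 10, against 38.7 to 73.6 CPM at day 0. At day 21 the neuron sum was 61.1 to 67.0 CPM with RA and 120 to 134 CPM with BMP2. Of the RA day 10 sum, DCX alone had 135 and 88.9 CPM. RBFOX3 was lower there (1.87 and 1.97 CPM) than at day 0 (12.8 and 9.62 CPM). Summed blood and immune markers reached 59.3 CPM in RA day 10 replicate 1 and at most 3.87 CPM in each of the other 13 libraries. In such bulk RNA, a change in the share of cells that express a gene and a change in RNA per cell cannot be told apart.

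**Figure D1:**
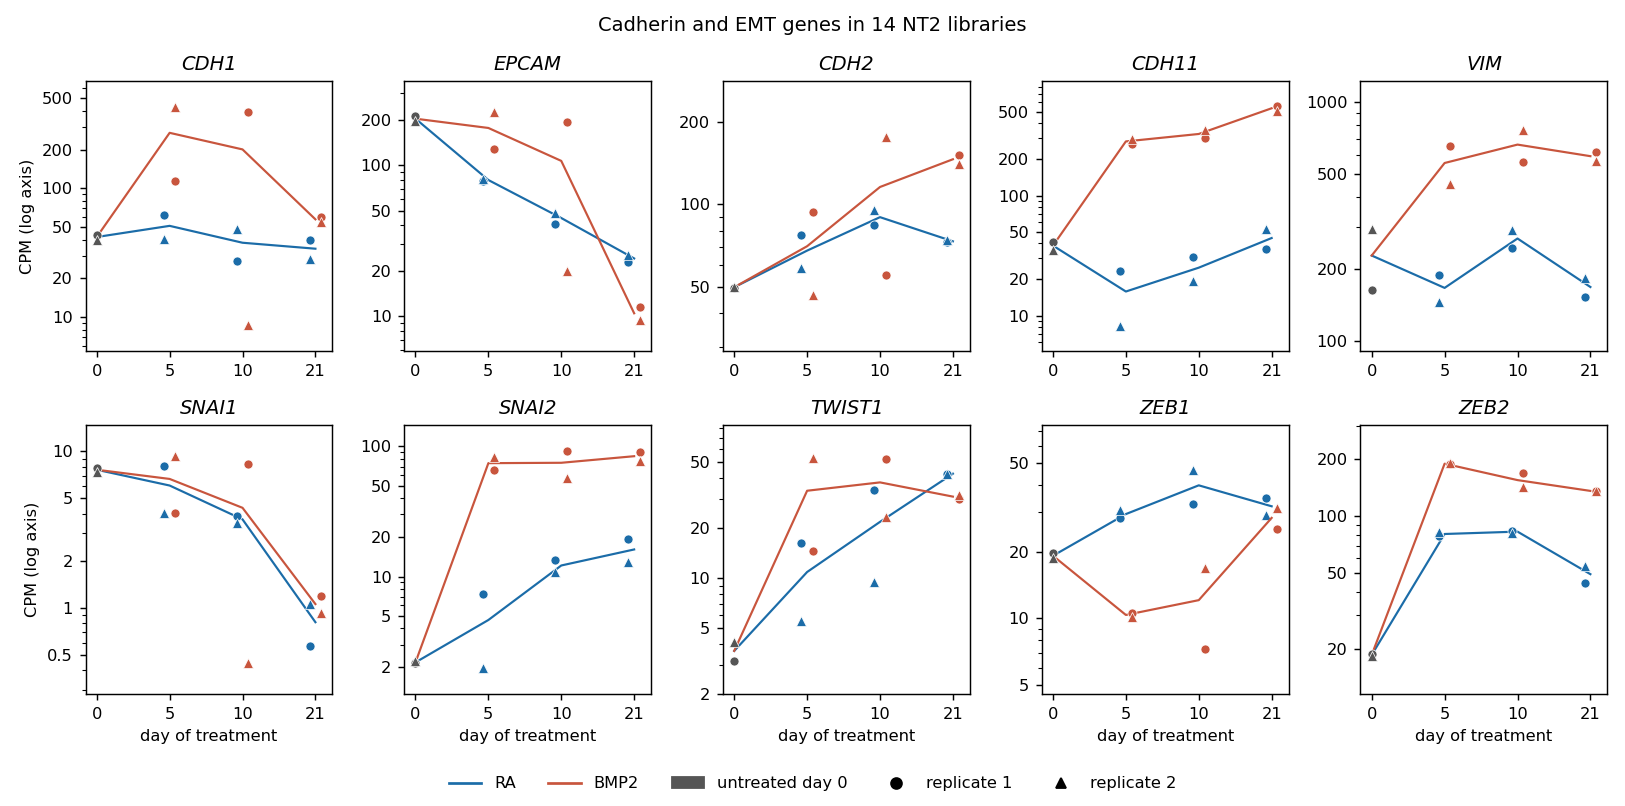
Level of each of the 10 genes in the 14 libraries, in CPM on a log axis, by day of RA (blue), BMP2 (red) or no treatment (grey, day 0); circles are replicate 1, triangles replicate 2, and lines join group means. The 2 BMP2 day 10 libraries lie far apart for CDH1 (392 and 8.72 CPM), EPCAM, CDH2 and SNAI1, but close together for ZEB2 and CDH11.

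CDH1 did not fall with either treatment by the test used, and its highest levels were in BMP2 libraries. At day 0 it had 43.7 and 40.0 CPM. With RA it had 61.7 and 40.4 CPM at day 5, 27.4 and 48.1 CPM at day 10, and 39.9 and 28.0 CPM at day 21. With BMP2 it had 114 and 425 CPM at day 5, 392 and 8.72 CPM at day 10, and 60.1 and 54.7 CPM at day 21. All 6 RA libraries lay between 27.4 and 61.7 CPM, a range that contains both day 0 libraries. The BMP2 libraries held both the highest and the lowest CDH1 level of the 14. Its log2 fold change against day 0 was 0.29 ± 1.12, -0.15 ± 1.12 and -0.30 ± 1.12 (SE) at RA days 5, 10 and 21. It was 2.69 ± 1.19, 2.26 ± 1.17 and 0.46 ± 1.13 at BMP2 days 5, 10 and 21. The smallest adjusted p of these 6 was 0.12, with edgeR's quasi-likelihood test and Benjamini-Hochberg adjustment over 19142 genes. The libraries with most CDH1, BMP2 day 5 replicate 2 and BMP2 day 10 replicate 1, were also the pair that resembled each other. They had 36.3 and 33.1 CPM of TP63, a marker fixed for surface epithelium, against at most 4.28 CPM in the other 12 libraries. The whole list of 6 surface epithelium markers, all in the table, summed to 61.6 and 59.6 CPM in this pair and to 50.5 to 52.0 CPM at RA day 5, where CDH1 had 61.7 and 40.4 CPM. Its member GRHL3 was higher at RA day 5 (49.0 and 49.1 CPM) than in the pair (23.0 and 24.6 CPM). The list summed to 5.81 to 14.8 CPM at RA days 10 and 21, to 3.46 to 21.3 CPM in the other BMP2 libraries and to 2.98 to 9.82 CPM at day 0. KRT5 was at 0 in the 4 BMP2 libraries of days 5 and 10, KRT14 at RA day 5, and KRT14, KRT15 and KRT17 at day 0. The part of such cells in the CDH1 level was not tested. The size of the CDH1 change rested on these libraries. Without both BMP2 day 10 libraries, CDH1 was called higher at BMP2 day 5 than at day 0 (log2 fold change 2.71, adjusted p = 0.0032). Without BMP2 day 10 replicate 1, the day 10 change turned to -2.26 (adjusted p = 0.026), and without replicate 2 of that group it was 3.23 (adjusted p = 0.0034).

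EPCAM fell with both treatments by day 21. Day 0 libraries had 211 and 197 CPM. RA libraries had 79.0 and 81.0 CPM at day 5, 40.9 and 48.7 CPM at day 10, and 22.8 and 25.6 CPM at day 21. BMP2 libraries had 128 and 226 CPM at day 5, 194 and 19.9 CPM at day 10, and 11.5 and 9.45 CPM at day 21. Every RA library lay below both day 0 libraries, and each RA group lay below the RA group before it. At BMP2 day 5 the libraries lay on both sides of those of day 0. EPCAM was called lower against day 0 at RA day 21 (log2 fold change -3.07 ± 0.77, adjusted p = 0.009) and at BMP2 day 21 (-4.28 ± 0.81, adjusted p = 0.002). At RA day 5 and day 10 it was at -1.35 ± 0.72 (adjusted p = 0.28) and -2.18 ± 0.74 (adjusted p = 0.056). The spread that these tests used came in part from the BMP2 day 10 pair. Without both of its libraries, EPCAM was called lower at RA day 5 (-1.32, adjusted p = 0.0053) and at RA day 10 (-2.15, adjusted p = 0.00025) too. The BMP2 values at days 5 and 10 were -0.20 ± 0.71 and -0.93 ± 0.71 (adjusted p = 0.86 and 0.34). Without BMP2 day 10 replicate 1, EPCAM was called lower at BMP2 day 10 (-3.36, adjusted p = 9e-05), and without replicate 2 it was at -0.07 (adjusted p = 0.89). The RA day 21 call ended without either of its own libraries, with values of -3.00 (adjusted p = 0.064) and -3.18 (adjusted p = 0.057).

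Against day 0, CDH2 was called higher at BMP2 day 21 only, in the fit of all libraries with edgeR. It had 49.4 and 49.97 CPM at day 0. With RA it had 77.1 and 58.2 CPM at day 5, 84.1 and 95.2 CPM at day 10, and 72.5 and 73.8 CPM at day 21. With BMP2 it had 93.9 and 46.5 CPM at day 5, 54.9 and 176 CPM at day 10, and 152 and 140.2 CPM at day 21. All treated libraries except BMP2 day 5 replicate 2 exceeded both day 0 libraries. The log2 fold change at BMP2 day 21 was 1.55 ± 0.46 (adjusted p = 0.019). At the other 5 time points it lay between 0.44 ± 0.45 at RA day 5 (adjusted p = 0.6) and 1.22 ± 0.46 at BMP2 day 10 (adjusted p = 0.062). The BMP2 day 21 call ended without either of its own libraries (1.497 and 1.63, adjusted p = 0.065 and 0.052) or either day 0 library (1.55 and 1.56, adjusted p = 0.09 and 0.091). At BMP2 day 10, CDH2 was called higher with DESeq2 (1.21, adjusted p = 0.031), without the filter on low counts (1.22, adjusted p = 0.034), without BMP2 day 10 replicate 1 (1.83, adjusted p = 0.0014) and without BMP2 day 5 replicate 2 (1.25, adjusted p = 0.045), and was at 0.14 without BMP2 day 10 replicate 2 (adjusted p = 0.79). Without both BMP2 day 10 libraries, CDH2 at RA day 10 was called higher as well (0.89, adjusted p = 0.031).

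The ratio of CDH2 to CDH1 counts within a library describes the cadherin switch in a number that library size cannot change. It was 1.13 and 1.25 at day 0. RA libraries had ratios of 1.25 and 1.44 on day 5, of 3.07 and 1.98 on day 10, and of 1.82 and 2.63 on day 21. BMP2 libraries had ratios of 0.826 and 0.109 on day 5, of 0.140 and 20.2 on day 10, and of 2.52 and 2.56 on day 21. CDH2 counts exceeded CDH1 counts in all 6 RA libraries, while 3 of the 4 BMP2 libraries of days 5 and 10 held more CDH1 than CDH2. Which cadherin led depended on the length used. Per length of exon, 2 of those 4 BMP2 libraries held more CDH1, since BMP2 day 5 replicate 1 had a ratio of 1.03, and the ratio was 1.41 and 1.56 at day 0. By the deposited RPKM, which divide by the whole span of the gene, the log2 ratio was below 0 at day 0 (-1.03 and -0.882), at RA day 5 (-0.883 and -0.678) and in 1 library each of RA days 10 and 21 (-0.220 and -0.340). It stood at 0.132 and 0.155 at BMP2 day 21 on that scale. A length shifts the log2 ratio by the same amount in each library. On the log2 scale of counts the mean ratio was 1.13 ± 0.378 at RA day 21 and 1.35 ± 0.0165 at BMP2 day 21, against 0.250 ± 0.102 at day 0 (SD, n = 2 each). At BMP2 day 10 the SD of 5.07 was far larger than the mean of 0.751. CDH1 itself was not called lower at day 21 with either agent. The ratio was not tested.

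**Figure D2:**
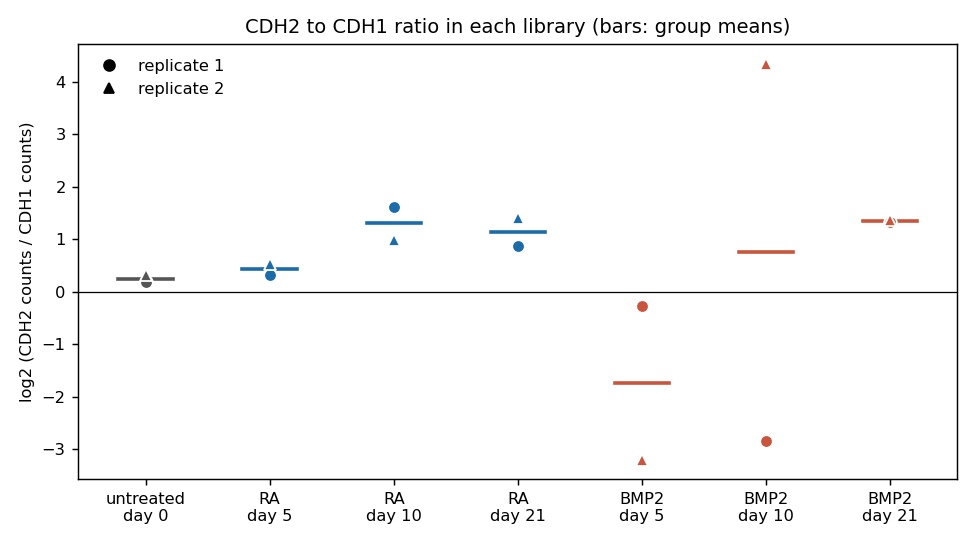
Log2 ratio of CDH2 to CDH1 counts in each library by group; circles are replicate 1, triangles replicate 2, and bars are group means. The ratio lies above 0 in all RA, BMP2 day 21 and day 0 libraries, below 0 in 3 of the 4 BMP2 libraries of days 5 and 10, and reaches 4.34 in BMP2 day 10 replicate 2; by deposited RPKM it lies below 0 at day 0 and RA day 5 too.

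CDH11, a cadherin of mesenchymal cells, rose with BMP2 at each time and was not called changed against day 0 with RA. Its levels at day 0 were 41.4 and 35.2 CPM. After RA they were 23.6 and 8.11 CPM at day 5, 30.9 and 19.3 CPM at day 10, and 35.7 and 52.8 CPM at day 21. After BMP2 they were 268 and 297 CPM at day 5, 299 and 352 CPM at day 10, and 562 and 505 CPM at day 21. Every BMP2 library exceeded every other library, and the 4 RA libraries of days 5 and 10 lay below both day 0 libraries. Against day 0 the log2 fold change was 2.88 ± 0.44, 3.09 ± 0.44 and 3.80 ± 0.46 at BMP2 days 5, 10 and 21 (adjusted p = 0.0015, 0.00087 and 0.0002). With RA it was -1.27 ± 0.42, -0.61 ± 0.41 and 0.21 ± 0.41 at days 5, 10 and 21 (adjusted p = 0.092, 0.31 and 0.71). The RA day 5 value was called lower without RA day 5 replicate 1 (-2.24, adjusted p = 0.012), with DESeq2 (-1.31, adjusted p = 0.023) and without the filter on low counts (-1.27, adjusted p = 0.0497), and stood at -0.67 without replicate 2 (adjusted p = 0.3).

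VIM likewise rose with BMP2 only by the test, and the difference between the treatments was itself called at each day, as described below. VIM had 162 and 292 CPM at day 0, where the replicates differed by a ratio of 1.80. RA libraries had 187 and 145 CPM at day 5, 245 and 289.6 CPM at day 10, and 152 and 183 CPM at day 21. BMP2 libraries had 654 and 453 CPM at day 5, 559.5 and 762 CPM at day 10, and 617 and 565 CPM at day 21. The BMP2 libraries all exceeded the others, and the RA and day 0 libraries overlapped. VIM was higher than at day 0 by 1.29 ± 0.30, 1.54 ± 0.30 and 1.38 ± 0.30 on the log2 scale at BMP2 days 5, 10 and 21 (adjusted p = 0.01, 0.0035 and 0.0038). The day 5 call ended without BMP2 day 5 replicate 1 (1.00, adjusted p = 0.068) and without day 0 replicate 1 (0.92, adjusted p = 0.071). With RA the values were -0.45 ± 0.29, 0.24 ± 0.29 and -0.44 ± 0.29, with adjusted p of 0.39, 0.59 and 0.25. Per kilobase of exon, VIM averaged 115 ± 7.02 CPM at BMP2 day 21, the highest level of the 10 genes there, and VIM was also highest there by deposited RPKM (58.6 ± 4.26, SD, n = 2 each). At day 0 the order of the leading pair depended on the length used. EPCAM averaged 80.9 ± 3.90 CPM per kilobase of exon and VIM 44.0 ± 17.7, while by deposited RPKM EPCAM averaged 4.62 ± 0.319 and VIM 23.3 ± 8.95 (SD, n = 2 each).

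SNAI1 and SNAI2, the Snail-family genes among the 10, were called in opposite directions against day 0 at day 21. SNAI1, a repressor of CDH1 in EMT, had 7.83 and 7.43 CPM at day 0. With RA it had 8.06 and 4.04 CPM at day 5, 3.86 and 3.49 CPM at day 10, and 0.568 and 1.05 CPM at day 21. With BMP2 it had 4.05 and 9.28 CPM at day 5, 8.27 and 0.447 CPM at day 10, and 1.19 and 0.924 CPM at day 21. Only the day 21 groups and RA day 10 lay wholly below day 0. At BMP2 day 10 the log2 fold change was -0.80 ± 0.93 and was not called. With 1 library left out it ran from -4.09, without BMP2 day 10 replicate 1, to 0.11. SNAI1 was called lower at RA day 21 (-3.23 ± 1.02, adjusted p = 0.026) and BMP2 day 21 (-2.85 ± 1.00, adjusted p = 0.039). Both calls were fragile. At RA day 21 the call ended without either library of that group (-2.87 and -3.76, adjusted p = 0.15 and 0.084) or either day 0 library (-3.19 and -3.27, adjusted p = 0.068 for each). At BMP2 day 21 it ended without either of its own libraries (-3.04 and -2.66, adjusted p = 0.12 and 0.17) or either day 0 library (-2.81 and -2.89, adjusted p = 0.095 and 0.092). It also ended without either RA day 10 library (-2.84, adjusted p = 0.054) or either RA day 21 library (-2.84, adjusted p = 0.053).

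SNAI2 (SLUG), expressed in neural crest and mesenchyme, rose with both agents, and was lower with RA than with BMP2 on each sampled day, as tested below. It had 2.15 and 2.23 CPM at day 0. Under RA it had 7.28 and 1.98 CPM at day 5, 13.5 and 10.8 CPM at day 10, and 19.5 and 12.8 CPM at day 21. Under BMP2 it had 65.8 and 82.9 CPM at day 5, 92.0 and 57.6 CPM at day 10, and 90.2 and 77.9 CPM at day 21. RA day 5 replicate 2 lay below day 0, and all other treated libraries exceeded it. Its log2 fold change against day 0 was 5.08 ± 0.56, 5.09 ± 0.56 and 5.26 ± 0.57 at BMP2 days 5, 10 and 21 (adjusted p = 0.00036, 0.00032 and 0.00013). At RA days 10 and 21 it was 2.47 ± 0.51 and 2.88 ± 0.51 (adjusted p = 0.0075 and 0.0016), and at RA day 5 it was 1.07 ± 0.49 (adjusted p = 0.21). The RA day 10 call ended without either day 0 library (2.45 and 2.50, adjusted p = 0.053 and 0.066). The RA day 5 value was called without replicate 2 of that group (1.76, adjusted p = 0.02) and stood at -0.14 without replicate 1 (adjusted p = 0.92).

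TWIST1, a basic helix-loop-helix factor of mesoderm and mesenchyme, had its highest group mean at RA day 21. At day 0 it had 3.18 and 4.11 CPM. With RA it had 16.3 and 5.54 CPM at day 5, 34.2 and 9.49 CPM at day 10, and 42.6 and 42.7 CPM at day 21. With BMP2 it had 14.6 and 52.8 CPM at day 5, 52.2 and 23.4 CPM at day 10, and 30.2 and 31.8 CPM at day 21. All 12 treated libraries exceeded both day 0 libraries, though replicates differed by up to a ratio of 3.62. The log2 fold change against day 0 was 2.58 ± 0.77 at RA day 10 (adjusted p = 0.036) and 3.55 ± 0.80 at RA day 21 (adjusted p = 0.0055). With BMP2 it was 3.21 ± 0.79 at day 5, 3.37 ± 0.80 at day 10 and 3.09 ± 0.79 at day 21 (adjusted p = 0.014, 0.009 and 0.0092). The 3 BMP2 calls ended without either day 0 library. Their values were then 3.04 and 3.40 at day 5 (adjusted p = 0.092 and 0.079), 3.20 and 3.57 at day 10 (adjusted p = 0.07 and 0.057), and 2.92 and 3.28 at day 21 (adjusted p = 0.068 and 0.052). The day 5 call also ended without BMP2 day 5 replicate 2 (2.03, adjusted p = 0.1). The RA day 10 call rested on replicate 1, the library with the blood and immune marker counts. Without it the value was 1.41 (adjusted p = 0.27), and the part of other cells in it was not tested. That call also ended without either day 0 library (2.41 and 2.78, adjusted p = 0.17 and 0.15), either RA day 21 library (2.61, adjusted p = 0.054) or BMP2 day 21 replicate 1 (2.58, adjusted p = 0.052). A replicate block ended it too (2.46, adjusted p = 0.054), as did limma on log2 RPKM with a pseudocount of 1 (0.27, adjusted p = 0.26) or 0.1 (1.25, adjusted p = 0.13). With limma and a pseudocount of 1 the BMP2 calls ended as well, at 0.36, 0.40 and 0.32 (adjusted p = 0.13, 0.081 and 0.13), and with 0.1 that at day 5 did (1.53, adjusted p = 0.065). The RPKM of TWIST1, divided by its whole span, ran only from 0.0322 to 0.551. A pseudocount of 1 exceeds all of these and shrinks the fold changes, so those limma fits cannot show whether the calls hold.

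ZEB1 and ZEB2, the zinc-finger E-box repressors whose upstream windows are printed above, differed in pattern. ZEB2 rose in every treated group. It had 18.7 and 18.3 CPM at day 0. With RA it had 78.3 and 82.9 CPM at day 5, 83.9 and 82.0 CPM at day 10, and 44.2 and 54.6 CPM at day 21. With BMP2 it had 188 and 191 CPM at day 5, 168 and 142 CPM at day 10, and 135 and 137 CPM at day 21. Every RA library lay below every BMP2 library, and all of both lay above day 0. Its log2 fold change against day 0 was 3.36 ± 0.15, 3.07 ± 0.15 and 2.88 ± 0.15 at BMP2 days 5, 10 and 21 (adjusted p = 1.4e-05, 2.9e-05 and 2.3e-05). It was 2.12 ± 0.14, 2.16 ± 0.14 and 1.42 ± 0.14 at RA days 5, 10 and 21 (adjusted p = 5.3e-05, 4.5e-05 and 0.00011). ZEB2 was called in all 6 under all 14 fits that each left out 1 library.

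ZEB1 stood above day 0 in all RA libraries and below it in the BMP2 libraries of days 5 and 10. The fit of all libraries with edgeR gave it 1 call against day 0. At day 0 it had 19.7 and 18.6 CPM. With RA it had 28.3 and 30.7 CPM at day 5, 32.8 and 46.6 CPM at day 10, and 34.7 and 29.2 CPM at day 21. With BMP2 it had 10.6 and 10.2 CPM at day 5, 7.27 and 16.9 CPM at day 10, and 25.2 and 31.5 CPM at day 21. All 6 RA libraries and both BMP2 day 21 libraries exceeded day 0, and the 4 other BMP2 libraries lay below it. ZEB1 was called higher at RA day 10 (1.05 ± 0.33, adjusted p = 0.045). That call ended in 12 of the 14 fits that left out 1 library, all but those without a BMP2 day 10 library, with values from 0.80 to 1.31 and adjusted p up to 0.2. At RA days 5 and 21 the log2 fold change was 0.62 ± 0.33 (adjusted p = 0.29) and 0.74 ± 0.33 (adjusted p = 0.095). It was -0.88 ± 0.34, -0.66 ± 0.33 and 0.57 ± 0.33 at BMP2 days 5, 10 and 21 (adjusted p = 0.072, 0.14 and 0.19). DESeq2 called ZEB1 lower at BMP2 day 5 (-0.91, adjusted p = 0.038). With only the 4 libraries compared it was called lower there (-0.85, adjusted p = 0.028) and higher at RA days 5 and 21 (0.65 and 0.69, adjusted p = 0.047 and 0.0051). Without both BMP2 day 10 libraries it was called lower at BMP2 day 5 (-0.86, adjusted p = 0.0073). That fit called it higher at RA day 21 (0.73, adjusted p = 0.01) and BMP2 day 21 (0.58, adjusted p = 0.03). Counts of the antisense gene ZEB1-AS1 came to between 1.72% and 19.04% of those of ZEB1 per library, and the sources used here do not say whether counting used strand. For VIM-AS1 and ZEB2-AS1 the share was at most 0.815% and 0.380%.

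**Figure D3:**
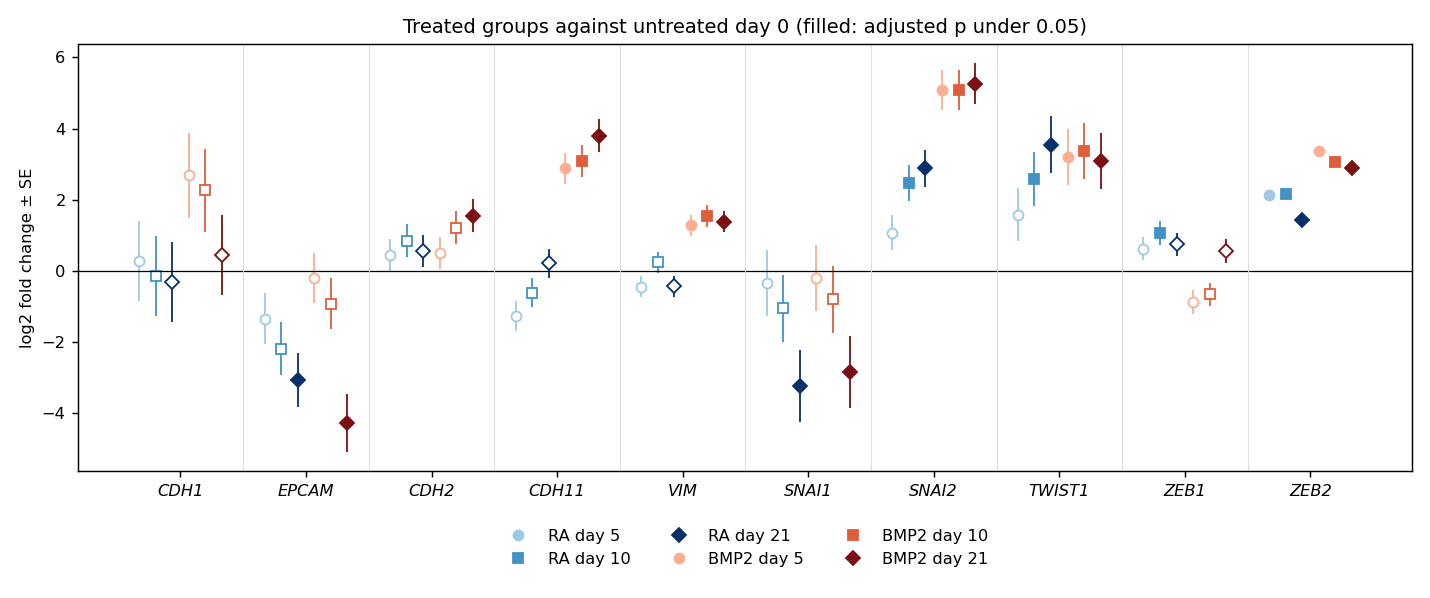
Log2 fold change of each gene against untreated day 0, with SE, for RA (blue) and BMP2 (red) at days 5, 10 and 21 (light to dark); filled symbols have an adjusted p under 0.05. SNAI2, TWIST1 and ZEB2 lie above 0 in every group, VIM and CDH11 are filled with BMP2 only, and EPCAM and SNAI1 are filled, below 0, at day 21.

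Against day 0, 1 of the 10 genes was called higher at RA day 5 (ZEB2), beside 5.67% of all 19142 genes tested, and 0 were called lower, beside 2.78%. At RA day 10, 4 were called higher, beside 13.2% of all genes, and 0 lower, beside 11.1%. At RA day 21, 3 were called higher, beside 23.6%, and 2 lower, beside 21.2%. At BMP2 day 5, 5 were called higher, beside 16.0%, and 0 lower, beside 13.5%. At BMP2 day 10, 5 were called higher, beside 19.9%, and 0 lower, beside 16.6%. At BMP2 day 21, 6 were called higher, beside 25.1%, and 2 lower, beside 22.2%. Where edgeR called 0 genes lower, CDH11 (RA day 5), EPCAM (RA day 10) and ZEB1 (BMP2 day 5) had an unadjusted p under 0.05, and none did at BMP2 day 10. DESeq2 called 1, 1, 1 and 0 genes lower in these 4 comparisons, and limma called 0 in each. ZEB1 had an RPKM of at most 0.243 and was not among the genes that limma fitted, so limma could not call it. The shares of genes called lower were near or under the background, as was that called higher at RA day 21. The median log2 fold change of the 10 genes was 0.37, 0.54 and 0.38 at RA days 5, 10 and 21, against 0.00, 0.06 and 0.10 over all genes. At BMP2 days 5, 10 and 21 it was 1.99, 1.90 and 1.47, against 0.00, 0.05 and 0.04 over all genes. These comparisons share the 2 day 0 libraries.

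RA was then set against BMP2 at the same day. No day 0 library enters these fold changes, while all 14 libraries enter the estimate of their spread. VIM, SNAI2, ZEB2 and CDH11 were lower with RA than with BMP2 at all 3 days, and ZEB1 was higher with RA at days 5 and 10. At day 5, 1 gene was called higher with RA, beside 6.09% of all genes, and 4 lower, beside 6.39%. At day 10 the counts were again 1 higher, beside 5.27%, and 4 lower, beside 5.86%. At day 21, 0 were called higher, beside 6.18%, and 4 lower, beside 6.22%. At an unadjusted p under 0.05, with DESeq2 and with limma, the count of genes higher with RA at day 21 was also 0. Other fits did call genes higher there. With only the 4 libraries compared, these were EPCAM (log2 fold change 1.198, adjusted p = 0.0094) and TWIST1 (0.453, adjusted p = 0.036). EPCAM was also called higher without both BMP2 day 10 libraries, as given below.

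CDH11 showed the largest of these differences. Its log2 fold change, RA over BMP2, was -4.16 ± 0.47, -3.70 ± 0.46 and -3.59 ± 0.45 at days 5, 10 and 21 (adjusted p = 0.0012, 0.0022 and 0.002). For SNAI2 it was -4.01 ± 0.53, -2.62 ± 0.50 and -2.38 ± 0.49 (adjusted p = 0.0023, 0.012 and 0.015). VIM differed by -1.74 ± 0.30, -1.31 ± 0.30 and -1.82 ± 0.30 (adjusted p = 0.0066, 0.023 and 0.0064). ZEB2, the gene with the smallest SE of the 10, differed by -1.23 ± 0.14, -0.90 ± 0.14 and -1.46 ± 0.14 (adjusted p = 0.0012, 0.0051 and 0.00069). ZEB1 went the other way at day 5 (1.51 ± 0.34, adjusted p = 0.02) and day 10 (1.72 ± 0.34, adjusted p = 0.014), and stood at 0.17 ± 0.33 at day 21 (adjusted p = 0.76). CDH1 was at -2.40 ± 1.18, -2.41 ± 1.18 and -0.76 ± 1.13 (adjusted p = 0.21, 0.22 and 0.69). At day 10 it was at 2.12 without BMP2 day 10 replicate 1 (adjusted p = 0.052) and was called lower with RA without replicate 2 (-3.37, adjusted p = 0.0083). At day 21 it was called lower with RA when only the 4 libraries compared were fitted (-0.76, adjusted p = 0.039). Without both BMP2 day 10 libraries, CDH1 was called lower with RA at day 5 (-2.40, adjusted p = 0.011). Under the same omission EPCAM was called lower with RA at day 5 (-1.15, adjusted p = 0.0078) and higher with RA at day 21 (1.19, adjusted p = 0.0073), and CDH2 was called lower with RA at day 21 (-1.01, adjusted p = 0.025). In the fit with all libraries these 3 stood at -1.14 ± 0.72, 1.21 ± 0.72 and -0.997 ± 0.46 (adjusted p = 0.33, 0.3 and 0.18).

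Some of these calls rested on single libraries. VIM at day 5 ended without RA day 5 replicate 2 (-1.57, adjusted p = 0.075) and at day 21 without RA day 21 replicate 1 (-1.71, adjusted p = 0.078). VIM at day 10 ended without either RA day 10 library (-1.20 and -1.44, adjusted p = 0.13 and 0.085) or BMP2 day 10 replicate 2 (-1.06, adjusted p = 0.07). SNAI2 at day 10 ended without either RA day 10 library (-2.80 and -2.49, adjusted p = 0.061 and 0.085). SNAI2 at day 21 ended without either RA library of that day (-2.73 and -2.13, adjusted p = 0.086 and 0.12) or either BMP2 library of that day (-2.27 and -2.50, adjusted p = 0.058 and 0.055). ZEB1 at day 5 ended without any 1 of the 4 libraries compared, with values from 1.44 to 1.57 and adjusted p up to 0.11, and at day 10 without RA day 10 replicate 2 (1.43, adjusted p = 0.081). ZEB2 and CDH11 were called at all 3 days in every fit that left out 1 library. With only the 4 libraries compared, all 5 calls at day 10 ended, CDH11 at -3.70 (adjusted p = 0.094) and ZEB2 at -0.91 (adjusted p = 0.22) among them, where that fit called 9 of all genes.

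**Figure D4:**
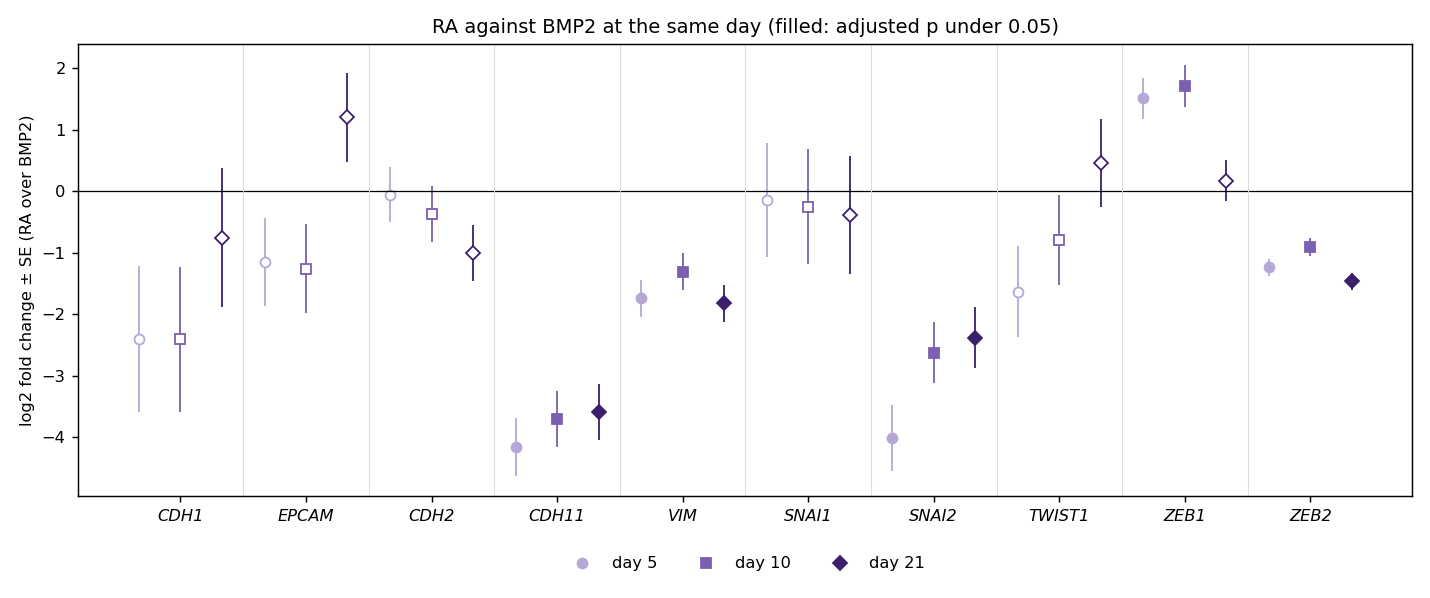
Log2 fold change of each gene, RA over BMP2 at the same day, with SE; filled symbols have an adjusted p under 0.05, and darker symbols are later days. VIM, CDH11, SNAI2 and ZEB2 lie below 0 at all 3 days, ZEB1 lies at 1.51 and 1.72 at days 5 and 10, and CDH1, EPCAM, CDH2, SNAI1 and TWIST1 are open throughout.

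Within a treatment, day 21 was compared with day 5. With RA, SNAI2 (1.81 ± 0.49, adjusted p = 0.021) and CDH11 (1.48 ± 0.42, adjusted p = 0.025) rose, beside 14.1% of all genes called higher. ZEB2 fell by 0.71 ± 0.14 on the log2 scale (adjusted p = 0.0056), beside 15.0% called lower. With BMP2, ZEB1 rose (1.45 ± 0.34, adjusted p = 0.025), beside 7.92% called higher. EPCAM (-4.08 ± 0.80, adjusted p = 0.016) and ZEB2 (-0.48 ± 0.14, adjusted p = 0.044) fell, beside 7.85% called lower. The CDH11 call with RA ended without RA day 5 replicate 2 (0.88, adjusted p = 0.11), RA day 21 replicate 1 (1.70, adjusted p = 0.054) or RA day 21 replicate 2 (1.14, adjusted p = 0.16). The SNAI2 call ended without the same libraries (1.12, 1.44 and 2.04, adjusted p = 0.071, 0.13 and 0.053), and the ZEB2 call with RA without RA day 21 replicate 1 (-0.60, adjusted p = 0.063). With BMP2, the ZEB1 call ended without any 1 of the 4 libraries compared (1.27 to 1.604, adjusted p up to 0.13). The EPCAM call ended without BMP2 day 5 replicate 1 (-4.43, adjusted p = 0.09) or either BMP2 day 21 library (-4.23 and -3.94, adjusted p = 0.066 and 0.11). The ZEB2 call ended in 12 of the 14 fits that left out 1 library, all but those without a BMP2 day 10 library, with values from -0.51 to -0.47 and adjusted p up to 0.17, and also without the filter on low counts (adjusted p = 0.097), under a replicate block (0.06), with only the 4 libraries compared (0.11) and with limma and a pseudocount of 0.1 (0.052). With only those 4, the RA calls of SNAI2 and CDH11 ended too (1.78 and 1.45, adjusted p = 0.069 and 0.071). Other genes were called in alternatives. Without both BMP2 day 10 libraries, EPCAM (-1.76, adjusted p = 0.00052) and SNAI1 (-2.92, adjusted p = 0.0017) fell with RA. There SNAI1 (-2.67, adjusted p = 0.004) and CDH1 (-2.24, adjusted p = 0.011) fell with BMP2, and CDH2 rose (1.04, adjusted p = 0.019). DESeq2 called TWIST1 higher with RA (1.94, adjusted p = 0.021). With only the 4 libraries compared, CDH11 rose with BMP2 (0.91, adjusted p = 0.032). A direct test of whether the day 21 over day 5 change differed between RA and BMP2 called 0 of the 10 genes with edgeR, 3 of them at an unadjusted p under 0.05 (ZEB1, SNAI2 and EPCAM), and 329 of all 19142.

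The genes around the 10 were counted in lists by function. Of 34 genes of epithelial junctions and their regulators, 2 rose and 10 fell against day 0 at RA day 21, with a median log2 fold change of -0.86, beside 23.6% of all genes higher and 21.2% lower. ST14, a membrane protease of epithelia, averaged 0.0949 CPM at RA day 21 and 5.11 CPM at day 0. CLDN6, a claudin of pluripotent and early embryonic epithelia, averaged 25.5 CPM at RA day 21 and 459 CPM at day 0 (log2 fold change -4.17 ± 0.95, adjusted p = 0.0057). The desmosome genes PKP2 (1.91 ± 0.39, adjusted p = 0.0034) and DSP (1.79 ± 0.56, adjusted p = 0.025) were the 2 that rose. At RA day 5 the counts were 2 higher and 1 lower (5.67% and 2.78% of all genes), and at RA day 10 they were 2 and 5 (13.2% and 11.1%). BMP2 gave 9 higher and 2 lower at day 5 (16.0% and 13.5% of all genes), and 10 higher and 3 lower at day 10 (19.9% and 16.6%), with medians of 0.95 and 0.88. The tight junction gene CLDN4 averaged 24.8 CPM at BMP2 day 5 and 0.557 CPM at day 0 (5.46 ± 1.36, adjusted p = 0.014). The simple epithelial keratin KRT19 averaged 430.3 CPM at BMP2 day 5 and 23.0 CPM at day 0 (4.23 ± 0.42, adjusted p = 0.00025). At BMP2 day 21 the counts were 5 higher and 5 lower (25.1% and 22.2% of all genes), with a median of -0.64. KRT19 (3.62 ± 0.41, adjusted p = 0.00016) and PKP2 (3.60 ± 0.42, adjusted p = 0.00018) were still higher there, and CLDN6 fell by 5.32 ± 1.01 on the log2 scale (adjusted p = 0.0019).

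Of 30 mesenchymal genes, 5, 14 and 18 rose at RA days 5, 10 and 21, and 22, 24 and 23 at BMP2 days 5, 10 and 21. Over all genes the shares called higher were 5.67%, 13.2% and 23.6% with RA and 16.0%, 19.9% and 25.1% with BMP2. The shares called lower were 2.78%, 11.1% and 21.2% with RA and 13.5%, 16.6% and 22.2% with BMP2. The list's median log2 fold change was 0.99, 1.70 and 2.32 with RA and 2.84, 3.50 and 3.69 with BMP2. The same 1 gene fell in all 6 comparisons, THY1, a surface glycoprotein of fibroblasts and also of embryonal carcinoma cells. It averaged 35.5 CPM at RA day 21 and 33.6 CPM at BMP2 day 21, against 223 CPM at day 0. COL3A1, a fibrillar collagen, averaged 5355 CPM at RA day 21 and 20755 CPM at BMP2 day 21, against 1.63 CPM at day 0. LUM, a small leucine-rich proteoglycan of matrix, averaged 4592 CPM at BMP2 day 21, against 0.322 CPM at day 0. Set against BMP2 directly, RA gave 1 gene higher and 12 lower at day 21, beside 6.18% and 6.22% of all genes, among the 12 LUM (-7.61 ± 0.90, adjusted p = 0.0015). PDGFRA, a growth factor receptor of mesenchyme, was the 1 that was higher with RA (2.01 ± 0.49, adjusted p = 0.028).

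**Figure D5:**
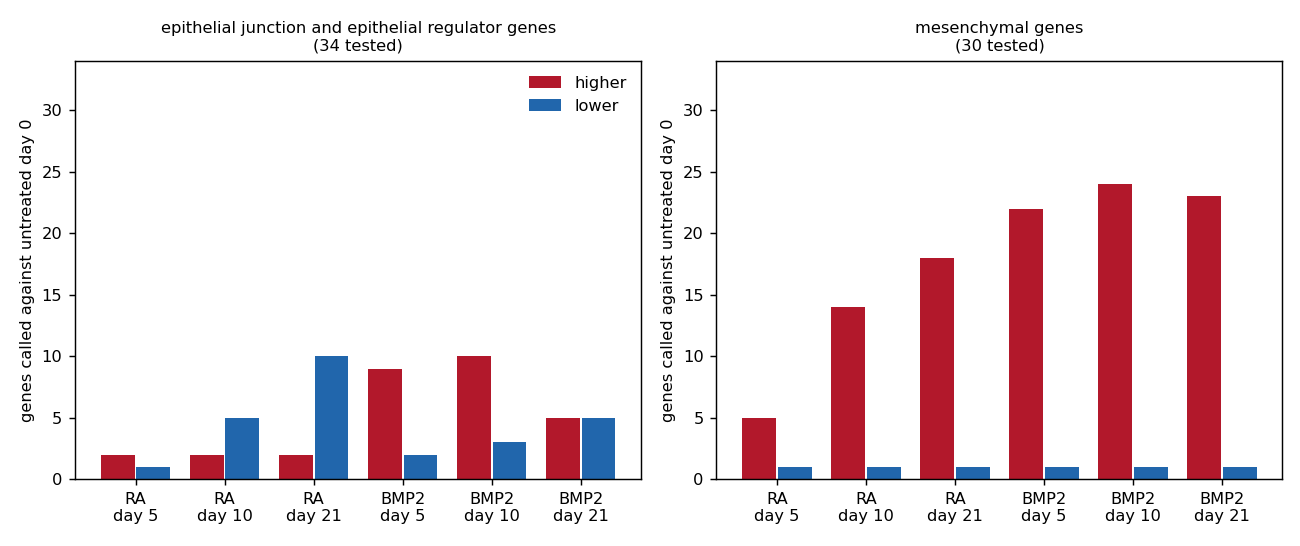
Number of genes called higher (red) and lower (blue) against untreated day 0 in the epithelial list (left, 34 tested) and the mesenchymal list (right, 30 tested), for RA and BMP2 at days 5, 10 and 21. Mesenchymal genes called higher number 18 at RA day 21 and 23 at BMP2 day 21, while epithelial genes called lower number 10 and 5.

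Catenins link cadherins to actin. Of 10 catenin and partner genes, 1, 2 and 2 rose with RA at days 5, 10 and 21. For falls with RA, edgeR called 0, 0 and 0, DESeq2 called 0, 1 and 1, and 0, 1 and 1 had an unadjusted p under 0.05. With BMP2, 6, 6 and 3 rose and 1, 2 and 3 fell. Of all genes, 5.67%, 13.2% and 23.6% rose with RA and 16.0%, 19.9% and 25.1% with BMP2. The shares of all genes that fell were 2.78%, 11.1% and 21.2% with RA and 13.5%, 16.6% and 22.2% with BMP2. JUP, plakoglobin of desmosomes and adherens junctions, averaged 143 CPM at RA day 5 and 236 CPM at BMP2 day 5, against 49.7 CPM at day 0 (1.53 ± 0.36 and 2.25 ± 0.36, adjusted p = 0.028 and 0.0019). CTNND2, a p120-family catenin best known from neurons, averaged 33.6 CPM at BMP2 day 21, against 5.99 CPM at day 0 (2.49 ± 0.33, adjusted p = 0.0003). CTNNA2, the neuronal alpha-catenin, averaged 2.71 CPM at BMP2 day 21 and 10.2 CPM at day 0 (-1.91 ± 0.33, adjusted p = 0.0011). PKP4, a plakophilin of the p120 family, fell by 1.25 ± 0.21 on the log2 scale there (adjusted p = 0.0011).

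Among 15 other classical cadherin genes that matched, of 16 listed, RA gave 3, 2 and 3 higher and 0, 1 and 2 lower at days 5, 10 and 21, the first of the lower counts also 0 at an unadjusted p under 0.05 and with DESeq2 or limma. BMP2 gave 4, 3 and 4 higher and 1 lower at each of the 3 days. The shares of all genes, in the same order, were 5.67%, 13.2% and 23.6% higher and 2.78%, 11.1% and 21.2% lower with RA, and 16.0%, 19.9% and 25.1% higher and 13.5%, 16.6% and 22.2% lower with BMP2. CDH3 (P-cadherin), an epithelial cadherin, averaged 244 CPM at BMP2 day 5 and 33.7 CPM at day 0 (2.85 ± 0.83, adjusted p = 0.027). It was lower with RA than with BMP2 at day 5 (-3.32 ± 0.85, adjusted p = 0.032). CDH8 and CDH10, cadherins known from the nervous system, averaged 48.1 and 22.9 CPM at RA day 21, against 3.83 and 1.81 CPM at day 0. CDH8 was also higher with RA than with BMP2 at day 21 (1.97 ± 0.43, adjusted p = 0.019). CDH9 averaged 0.0522 CPM at BMP2 day 21 and 7.26 CPM at day 0 (-7.07 ± 1.55, adjusted p = 0.0043).

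Of 8 other intermediate filament genes that matched, of 9 listed, 1 rose in each RA comparison with day 0, and 0, 2 and 2 fell at days 5, 10 and 21. At RA day 5, 2 had an unadjusted p under 0.05 and a fall, and DESeq2 called 1. The neurofilament gene NEFM averaged 359 CPM at RA day 21 and 30.2 CPM at day 0 (3.57 ± 0.34, adjusted p = 9.7e-05). It was higher with RA than with BMP2 at day 21 (2.49 ± 0.32, adjusted p = 0.0023), where VIM was lower with RA. NES (nestin), a filament of neural and muscle progenitors, averaged 15.6 CPM at BMP2 day 21 and 406 CPM at day 0 (-4.70 ± 0.98, adjusted p = 0.0032). SYNM (synemin), a filament of muscle, averaged 60.2 CPM at BMP2 day 5 and 19.1 CPM at day 0 (1.66 ± 0.40, adjusted p = 0.012). BMP2 gave 1, 1 and 3 genes of this list higher and 1, 0 and 2 lower at days 5, 10 and 21. Among all genes the shares higher were 5.67%, 13.2% and 23.6% with RA and 16.0%, 19.9% and 25.1% with BMP2, and the shares lower were 2.78%, 11.1% and 21.2% and then 13.5%, 16.6% and 22.2%. At BMP2 day 10, 1 had an unadjusted p under 0.05 and a fall, DESeq2 called 0 and limma called 1.

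The genes with the pattern most like CDH1, by Pearson r of log2 CPM over the 14 libraries among 13144 genes with at least 5 mean CPM in a group, were ATP12A (0.960), CTTNBP2 (0.945), IGSF3 (0.917), RNF43 (0.916) and CDC42BPG (0.911). ATP12A had 27.3 CPM in BMP2 day 5 replicate 2 and 30.5 CPM in BMP2 day 10 replicate 1, and 0.0447 CPM in BMP2 day 10 replicate 2. For CDH2 they were TEX261 (0.958), SCCPDH (0.956), CFL2 (0.956), SAR1B (0.949) and LGALS8 (0.944). SCCPDH had 245 CPM in BMP2 day 10 replicate 2, its highest, against 71.8 CPM in replicate 1 of that group. These libraries share groups and the extreme BMP2 pair, so the values describe likeness of pattern and carry no test.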

How the data were processed

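RNA of 14 NT2 libraries was sequenced with Illumina protocols, per the labels. The authors deposited a table of raw read counts per Ensembl gene and a table of RPKM, which scales reads to gene length and library size. The submitters' processing notes name STAR, featureCounts, DESeq2 and hg19, with no versions. RPKM as deposited by the authors divides by the whole gene span, so levels per length used GENCODE v29 exon unions instead, and counts may include intron reads. Between 66.0% and 73.5% of counts from 1 to 19 were even in each library, a pattern seen when a fragment's reads are counted singly. Symbols were matched for 25214 of 25952 identifiers. Files are on hg19 and the annotation is not, so no coordinates are given except those of the ZEB1 and ZEB2 windows on GRCh38.p14.

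All genes were fitted with edgeR 4.0.16 in R 4.3.3 (quasi-likelihood, TMM, filterByExpr with a minimum count of 10), 1 mean per group over all 14 libraries, with 7 residual degrees of freedom. A gene was called where its Benjamini-Hochberg adjusted p was under 0.05. SE is the size of the log2 fold change over the square root of F. The 11 comparisons set each of the 6 treated groups against day 0, RA against BMP2 on every sampled day, and the last against the first treated day for each agent. Alternatives were RLE factors, no filter, DESeq2 1.42.0, a replicate block, only the 4 libraries compared, limma 3.58.1 on log2 RPKM with a pseudocount of 1 or 0.1 (genes reaching an RPKM of 0.5 in 2 libraries), and leaving out libraries. ZEB1 did not reach that RPKM and was not in the limma fits. A pseudocount shrinks the changes of genes whose RPKM lie below it. The code was tested on simulated data. Groups and replicate numbers come from sample titles, although the descriptions number the RA day 21 libraries differently. The 10 genes and all lists were chosen with earlier results of these data known. From each list, text names at most 2 genes a direction and comparison, those with the largest called change, at least 5 CPM in a group and groups that do not overlap. CDH19 and NEFL had no match by symbol, nor did TUBB3, PECAM1 and HBG1 of the cell type marker lists.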

Additional observations from a re-analysis of the deposited data

Results flagged for a closer look

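Each value here is a log2 fold change of RA over BMP2 at the same day that passed edgeR's adjusted threshold in the fit of all libraries. Levels in the 2 treated groups thus differed by a direct test, in which vehicle and agent cannot be told apart. Calls among them that ended in other fits are given above. At day 5 these were VIM (-1.74), SNAI2 (-4.01), ZEB1 (1.51), ZEB2 (-1.23) and CDH11 (-4.16). At day 10 they were VIM (-1.31), SNAI2 (-2.62), ZEB1 (1.72), ZEB2 (-0.90) and CDH11 (-3.70). At day 21 they were VIM (-1.82), SNAI2 (-2.38), ZEB2 (-1.46) and CDH11 (-3.59).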

How the results depend on the processing

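Of 48 called results for the 10 genes, 24 were called in all fits that left out 1 library and 21 under all alternatives. Leaving out 1 library gave between 1 and 2 called genes at RA day 5 against day 0 (1 in the fit of all libraries), 1 and 6 at RA day 10 (4), 3 and 6 at RA day 21 (5), 3 and 7 at BMP2 day 5 (5), 4 and 9 at BMP2 day 10 (5), and 5 and 9 at BMP2 day 21 (8). For RA against BMP2 it gave 3 to 7 at day 5 (5), 2 to 7 at day 10 (5) and 2 to 6 at day 21 (4). For day 21 against day 5 it gave 0 to 5 with RA (3) and 0 to 6 with BMP2 (3). The count of 0 with RA came without RA day 21 replicate 1, with 3 genes at an unadjusted p under 0.05. With BMP2 it came without BMP2 day 5 replicate 1 (5 such genes), BMP2 day 21 replicate 1 (3) or BMP2 day 21 replicate 2 (3). Such fits assume that a group's lone library varies as the rest do. The number of all genes called also moved in these fits, in every comparison, so such shifts were not particular to the 10 genes. The log2 ratio of CDH2 to CDH1, as a difference from day 0, ran from 0.07 to 0.28 at RA day 5, 0.73 to 1.37 at RA day 10, 0.61 to 1.15 at RA day 21, -3.44 to -0.53 at BMP2 day 5, -3.09 to 4.09 at BMP2 day 10, and 1.02 to 1.17 at BMP2 day 21.

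Without both BMP2 day 10 libraries, called genes numbered 2 at RA day 5, 6 at RA day 10, 6 for RA against BMP2 at day 21, and, for day 21 against day 5, 5 with RA and 6 with BMP2. With only the 4 libraries compared they numbered 3 at RA day 5, 7 at RA day 10, 0 for RA against BMP2 at day 10 (5 at an unadjusted p under 0.05), 8 at day 21, and 5 for BMP2 day 21 against day 5. That fit called 9 of all genes for RA against BMP2 at day 10 and 1217 at BMP2 day 10 against day 0, where all libraries together gave 2130 and 6991, and 2868, 5326 and 8884 at RA day 5 against day 0, RA against BMP2 at day 21 and RA day 21 against day 5 (1618, 2374 and 5565). DESeq2 called 3236 of all genes at RA day 5 (1618), 4144, 3908 and 4176 for RA against BMP2 at days 5, 10 and 21 (2389, 2130 and 2374), and 5113 for BMP2 day 21 against day 5 (3018). Without both BMP2 day 10 libraries these were 2901 at RA day 5, 4348 and 4431 at days 5 and 21, and 5460. Leaving out 1 library gave 1 to 5347 for BMP2 day 21 against day 5, the lowest without BMP2 day 5 replicate 1. No filter and DESeq2 each gave 2 at RA day 5, and 5 and 6 for RA day 21 against day 5. limma gave 2 at RA day 10 with either pseudocount, and with a pseudocount of 1 it gave 1 for RA day 21 against day 5. No filter and the replicate block, and limma with 0.1, gave 2 for BMP2 day 21 against day 5.

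Without BMP2 day 10 replicate 1, 4 signs turned: CDH1 at BMP2 day 10 against day 0 was at -2.26 (2.26 with all libraries), and for RA against BMP2 at day 10, EPCAM was at 1.17 (-1.26), SNAI1 at 3.03 (-0.25) and CDH1 at 2.12 (-2.41), the last not called in either fit. Without replicate 2 of that group these 4 were at 3.23, -2.11, -1.17 and -3.37. The cause was not tested. Replicate numbers did not pair libraries: over 21 pairs of groups, the correlation of same-numbered deviations ran from -0.342 to 0.146. A replicate block called 3 genes at RA day 10 (TWIST1 lost) and 2 for BMP2 day 21 against day 5 (ZEB2 lost), and the same numbers as without it in the other 9 comparisons. With 2 libraries a group, smaller changes can be missed.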
